A study of Mus musculus with 36 samples.

Results

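Allelic expression of the X chromosome was compared between Halo-SMCHD1 and its parental line iXist-ChrX, the lines of the study in which neither SMCHD1 nor LRIF1 is mutated, after 7 days of monolayer differentiation under dox (doxycycline). The comparison rests on 5 of the 36 libraries of the series, namely 2 replicates of iXist-ChrX and 3 of Halo-SMCHD1, which were chosen by line and day. Both lines are XX mouse embryonic stem cells (mESCs) from a Cast x 129S cross in which a TetOn promoter replaces the endogenous Xist promoter on the 129S X chromosome, so that dox at 1 µg/ml makes the 129S chromosome the inactive X (Xi) and leaves the Cast chromosome active (Xa). Halo-SMCHD1 is a single clone, G2, with a Halo-tag at the N-terminus of native SMCHD1. By the description of its making, it also holds a transgene for eGFP-tagged CIZ1 in the Rosa26 locus. iXist-ChrX carries neither, and no library of iXist-ChrX other than those of day 7 was used. The tag, the transgene and the passage through a clone cannot be told apart in this comparison.

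X-inactivation silences the chromosome that is coated by Xist RNA, and genes lose expression at different rates during differentiation. SMCHD1 is a non-canonical SMC protein that is enriched on the Xi and known for its part in lasting silencing and in methylation of CpG islands on the Xi. Escape genes are those that keep being transcribed from the Xi in normal female cells. ChrRNA-seq sequences RNA bound to chromatin and so follows transcription in progress.

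The deposited value for each gene and library is the allelic fraction Xi/(Xi+Xa), which is 0.5 for equal expression of the alleles and 0 for full silencing of the Xi. The table holds 249 genes, which span chrX:6047507-103484957 of mm10 and end at Xist, and genes beyond it were not analysed here. Fractions carry no expression levels, so the cell type could not be checked against markers, and Smchd1, an autosomal gene, is not among the genes. The read counts behind each fraction are unknown. For iXist-ChrX replicate 1, but for none of the other 4 libraries, the reads were restored from an existing alignment before processing. Xist, the RNA that triggers silencing (chrX:103460373-103483233), had fractions of 0.999 and 0.998 in iXist-ChrX and 0.999, 0.999 and 0.998 in Halo-SMCHD1. Xist RNA therefore came from the 129S allele in all 5 libraries.

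Before induction, the single uninduced Halo-SMCHD1 library had a median fraction of 0.518. By day 7, the upper quartile over genes was 0.114 and 0.0820 in the iXist-ChrX replicates and 0.0609, 0.0696 and 0.0869 in the Halo-SMCHD1 replicates. The quartiles of iXist-ChrX replicate 2 lay within the range of the Halo-SMCHD1 libraries, and those of replicate 1 lay above it. The library medians differed between the lines by -0.0135 and the library means by -0.0119 (Halo-SMCHD1 minus iXist-ChrX). Neither difference could be told from the spread between libraries (two-sided exact permutation tests over the 5 libraries, p = 0.4 for each, where 0.2 is the smallest p that 3 libraries against 2 can give). The difference of means became -0.00213 when iXist-ChrX replicate 1 was left out, -0.0216 when iXist-ChrX replicate 2 was, and -0.00716 when Halo-SMCHD1 replicate 1 was.

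**Figure D1:**
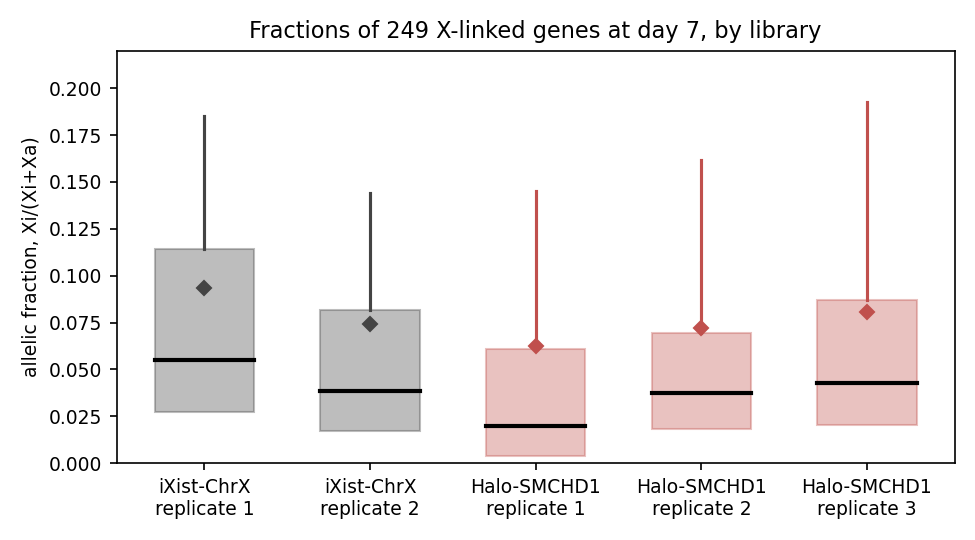
Distribution of the allelic fraction over 249 X-linked genes (vertical axis, Xi/(Xi+Xa)) in each day 7 library. Boxes span the quartiles, black lines are medians, diamonds are means and vertical lines reach the 90th percentile. iXist-ChrX replicate 1 has the highest median, 0.0549, and Halo-SMCHD1 replicate 1 the lowest, 0.0198.

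The same was seen when the libraries were compared in pairs, each gene with itself. Between the replicates of iXist-ChrX, replicate 2 was lower than replicate 1 for 182 genes and higher for 58, with a mean difference of -0.0195. Between Halo-SMCHD1 replicates 1 and 3, replicate 3 was higher for 186 genes and lower for 48, with a mean difference of 0.0184. Both of these gaps were larger in size than the difference of the line means, -0.0119, which averages over replicates. The remaining gaps within a line were smaller than it. Halo-SMCHD1 replicate 2 exceeded replicate 1 by 0.00980, and replicate 3 exceeded replicate 2 by 0.00863. Among pairs across the lines, the mean difference ran from -0.0310, for Halo-SMCHD1 replicate 1 against iXist-ChrX replicate 1, to 0.00689, for Halo-SMCHD1 replicate 3 against iXist-ChrX replicate 2. In that last pair 109 genes were lower in the Halo-SMCHD1 library and 129 were higher. The median absolute difference of a gene was 0.0130 in this pair and between 0.0150 and 0.0226 in pairs of the same line.

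Residual expression from the Xi was counted as the number of genes above 0.1. There were 71 and 43 such genes in the iXist-ChrX replicates and 39, 42 and 51 in the Halo-SMCHD1 replicates. The counts overlapped between the lines, with a difference of -13 between the line means (exact permutation test, two-sided, p = 0.4, n = 2 and 3). Averaged per gene, 62 genes (24.9%) exceeded 0.1 in iXist-ChrX and 43 (17.3%) in Halo-SMCHD1. Of these, 38 exceeded it in both lines, which is 61.3% of the iXist-ChrX genes and 88.4% of the Halo-SMCHD1 genes.

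At a higher limit the counts of the lines were closer. Above 0.2 there were 18 genes in iXist-ChrX and 17 in Halo-SMCHD1, and 15 were shared. Above 0.05 there were 124 and 80, and 76 were shared. In all 5 libraries 11 genes stayed above 0.2, which were Dynlt3, Kdm6a, Slc25a5, C330007P06Rik, Ube2a, Utp14a, Pnma5, Zfx, Nono, Pin4 and Xist. Conversely, 165 genes were above 0.1 in no library. No gene was above 0.1 in all Halo-SMCHD1 libraries while at or below it in both iXist-ChrX libraries, whereas 6 genes showed the opposite pattern, namely Wdr13, Rbm3, Rpgr, Uxt, Htatsf1 and Apoo (the members of these classes were named after their values were seen).

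**Figure D2:**
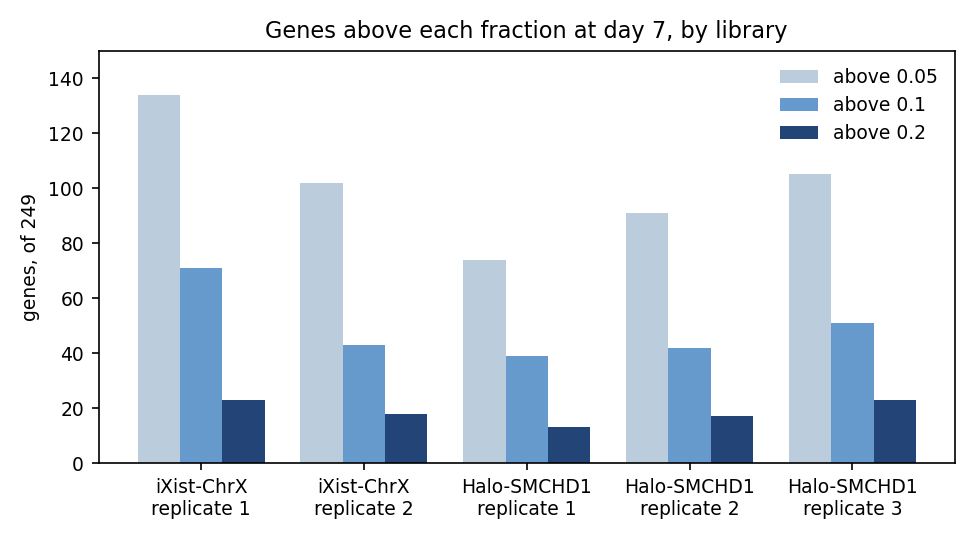
Number of genes, of 249, with an allelic fraction above 0.05, 0.1 and 0.2 (bars) in each day 7 library. At 0.1, iXist-ChrX replicate 1 holds 71 genes and the other 4 libraries between 39 and 51.

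Libraries also differed in how many genes were listed at exactly 0. There were 11 and 28 in the iXist-ChrX replicates and 61, 22 and 19 in the Halo-SMCHD1 replicates. Halo-SMCHD1 replicate 1 thus stood apart from its own replicates, and a value of 0 can reflect few reads, which was not tested. With all genes that were at 0 in any of the 5 libraries left out, the difference of medians was -0.0163 and that of means was -0.0126.

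A fraction near 1 at day 7 did not always mark a gene on which silencing had failed. Ube2a, a ubiquitin-conjugating enzyme (chrX:36874366-36884220), and its neighbour C330007P06Rik (chrX:36848544-36864246) had fractions of 1 in the uninduced library as well. Their fractions stayed at 1 in every day 7 library of both lines but Halo-SMCHD1 replicate 2, where C330007P06Rik was at 0.996. These genes thus carried no measurable Cast signal before Xist was induced. Dynlt3, a dynein light chain (chrX:9654270-9662983), had 0.833 and 0.777 in iXist-ChrX and 0.778, 0.794 and 0.706 in Halo-SMCHD1 against 0.869 uninduced. Its libraries overlapped, and its fractions at day 7 remained close to the starting value. Divided by 2 times the uninduced value, the counts above 0.1 were 57 genes in iXist-ChrX and 43 in Halo-SMCHD1.

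Pnma5, a member of the paraneoplastic Ma antigen family (chrX:73033981-73037103), was the other gene whose mean exceeded 0.5 in either line, besides Xist. It had 0.273 and 0.393 in iXist-ChrX and 0.667, 0.333 and 0.571 in Halo-SMCHD1. The libraries overlapped, and the mean difference of 0.191, the largest of all genes, came with an SD of 0.172 in Halo-SMCHD1 (n = 3) and 0.0849 in iXist-ChrX (n = 2). The limma adjusted p of Pnma5 was 0.505.

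Gene by gene, 184 genes had a lower mean in Halo-SMCHD1, 63 had a higher mean and 2 were equal. For 146 genes (58.6%) the line means lay within 0.02 of each other. Only 31 genes differed by more than 0.05, of which 24 were lower and 7 higher in Halo-SMCHD1. In limma, fitted to the log2 odds of the fraction over all differentiated libraries, no gene had an adjusted p under 0.05 (0 of 249 genes, 0%), and the smallest adjusted p was 0.345. At an unadjusted p under 0.05, 28 genes (11.2%) were lower and 1 gene, Mamld1 (0.402%), was higher in Halo-SMCHD1. Without iXist-ChrX replicate 2, limma gave an adjusted p of 0.0270 for Chst7 and 0.0103 for Spin4, and no other omission of a library gave a call. Spin4, a spindlin, had a fraction of 0.0164 in iXist-ChrX replicate 1 and was listed at 0 in the other 4 libraries.

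Without overlap between iXist-ChrX and Halo-SMCHD1 libraries there were 68 genes, 63 of them lower (25.3% of all genes) and 5 higher (2.01%) in Halo-SMCHD1. Most of the gaps were small, since 25 lower genes and 2 higher genes kept a gap of at least 0.01 between the nearest libraries of the lines. With 1 library fewer, by construction, more genes do not overlap, and the lower genes made up 55.0% without iXist-ChrX replicate 2 and at most 36.9% without any other library. Higher genes made up 12.9% without iXist-ChrX replicate 1, 12.0% without Halo-SMCHD1 replicate 1, 4.82% without Halo-SMCHD1 replicate 2 and 4.02% without iXist-ChrX replicate 2. Of the 63 lower genes, 48 were above 0 in all 5 libraries. When each library was centred on its median log odds, which removed a difference of -0.44 between the lines, 29 genes were lower and 34 higher without overlap, and 104 of the 249 genes had a lower mean in Halo-SMCHD1. Centring of this kind balances the directions by construction, so these counts do not bear on the excess of lower genes. Without centring, the median gene differed by -0.36 in log2 odds.

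The promoter sequences of 4 genes of this class are shown because methylation of CpG islands on the Xi is the best known mark of SMCHD1 function. The 4 genes were picked from the 10 largest differences in each direction among non-overlapping genes. Hmgb3 and Wdr13, which differed more than Ebp, are not shown. Each sequence runs 5′ to 3′ over 300 bases around the RefSeq start (GRCm38.p6), on the strand of the gene, with every CG dinucleotide in capitals.
Wdr44: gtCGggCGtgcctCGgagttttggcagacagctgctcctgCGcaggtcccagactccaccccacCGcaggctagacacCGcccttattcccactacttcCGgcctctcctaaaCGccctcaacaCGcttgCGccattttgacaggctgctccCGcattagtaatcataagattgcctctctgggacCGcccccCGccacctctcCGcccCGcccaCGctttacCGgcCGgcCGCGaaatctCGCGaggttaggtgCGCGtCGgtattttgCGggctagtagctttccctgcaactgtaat
Syn1: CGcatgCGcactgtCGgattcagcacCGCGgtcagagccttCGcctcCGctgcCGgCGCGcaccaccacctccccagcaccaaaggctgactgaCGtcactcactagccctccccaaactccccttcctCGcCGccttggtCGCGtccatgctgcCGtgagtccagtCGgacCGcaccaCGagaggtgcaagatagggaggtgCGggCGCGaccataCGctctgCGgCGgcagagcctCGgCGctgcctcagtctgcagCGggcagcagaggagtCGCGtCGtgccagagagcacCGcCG
Ebp: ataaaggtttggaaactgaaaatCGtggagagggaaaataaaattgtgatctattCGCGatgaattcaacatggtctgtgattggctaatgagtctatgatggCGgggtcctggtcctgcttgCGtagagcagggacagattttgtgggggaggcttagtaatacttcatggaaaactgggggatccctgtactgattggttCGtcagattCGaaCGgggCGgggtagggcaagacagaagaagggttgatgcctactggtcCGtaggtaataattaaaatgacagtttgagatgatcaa
Pin4: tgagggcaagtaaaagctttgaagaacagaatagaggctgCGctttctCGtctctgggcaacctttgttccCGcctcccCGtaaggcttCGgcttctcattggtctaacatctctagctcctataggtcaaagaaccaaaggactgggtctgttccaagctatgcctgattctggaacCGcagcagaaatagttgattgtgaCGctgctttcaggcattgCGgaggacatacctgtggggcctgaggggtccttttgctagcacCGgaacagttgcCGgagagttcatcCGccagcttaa
The windows are chrX:23692801-23693100 (plus strand) for Wdr44, chrX:20920869-20921168 (minus strand) for Syn1, chrX:8193463-8193762 (minus strand) for Ebp and chrX:102119219-102119518 (plus strand) for Pin4. They hold 26, 33, 10 and 11 CG dinucleotides, respectively. The window of Wdr44 ends before the start of Wdr44 in the deposited coordinates, chrX:23693117. A promoter was found for 201 of the 249 genes. The CG dinucleotide, which reads the same on both strands, occurred with a median of 20 per window (quartiles 11.5 and 24) in 48 non-overlapping genes lower in Halo-SMCHD1 and with a median of 16 (quartiles 10 and 22) in the 153 other genes. The ranges overlap broadly, and these counts describe the sequence only. Of all 1046 X-linked promoters of the reference, 92.6% hold at least 1 CG.

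Among the genes lower in Halo-SMCHD1 without overlap, the mean difference was largest for Wdr44, an effector of the Rab11 GTPase (chrX:23693117-23806001). Its fractions were 0.370 and 0.294 in iXist-ChrX and 0.143, 0.222 and 0.194 in Halo-SMCHD1. All Halo-SMCHD1 libraries lay below both iXist-ChrX libraries by at least 0.0719, and the means were 0.332 ± 0.0539 (SD, n = 2) and 0.186 ± 0.0402 (SD, n = 3). On the log2 odds scale the difference was -1.10 with an SE of 0.62 (limma adjusted p = 0.481). Syn1, which encodes the synaptic vesicle protein synapsin I (chrX:20860511-20920918), had 0.0875 and 0.0893 in iXist-ChrX and 0, 0 and 0.0225 in Halo-SMCHD1. The gap of 0.0650 between its nearest libraries was the second largest after that of Wdr44, and 2 of its Halo-SMCHD1 libraries were listed at 0 (limma adjusted p = 0.420).

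Several of the others lay near 8 Mb, among neighbours whose libraries overlapped. Of these neighbours, Tbc1d25 lies between Rbm3 and Ebp and differed by -0.0468, and Slc35a2, a UDP-galactose transporter between Kcnd1 and Wdr13, was higher in Halo-SMCHD1 by 0.0750 (both named after their values were seen). Wdr13, a WD-repeat protein (chrX:8123301-8132847), had 0.162 and 0.108 in iXist-ChrX and 0.0635, 0.0506 and 0.0750 in Halo-SMCHD1. Rbm3, a cold-inducible RNA-binding protein (chrX:8138975-8145802), had 0.157 and 0.105 in iXist-ChrX and 0.0532, 0.0591 and 0.0881 in Halo-SMCHD1. Ebp, a sterol isomerase of cholesterol synthesis (chrX:8185331-8193512), had 0.152 and 0.0763 in iXist-ChrX and 0.0185, 0.0633 and 0.0625 in Halo-SMCHD1. In each of these genes iXist-ChrX replicate 1 was the highest library. That every Halo-SMCHD1 library lay below the lower iXist-ChrX replicate follows from the rule that named these genes. Porcn, the acyltransferase that modifies Wnt proteins and the next gene on the chromosome (chrX:8193850-8206525, named after its values were seen), differed by -0.134, but its fractions of 0.303 and 0.188 in iXist-ChrX and 0.0833, 0.0588 and 0.192 in Halo-SMCHD1 overlapped. Kcnd1, a voltage-gated potassium channel subunit (chrX:7823843-7836503), lay in the same stretch and had 0.0645 and 0.118 in iXist-ChrX and 0, 0.0625 and 0.0345 in Halo-SMCHD1, with a gap of only 0.00202.

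Of the 10 largest differences without overlap, 3 more came from elsewhere on the chromosome. Kdm6a, a histone H3K27 demethylase and known escape gene (chrX:18162667-18279358), had 0.335 and 0.288 in iXist-ChrX and 0.232, 0.257 and 0.270 in Halo-SMCHD1. Htatsf1, a splicing and elongation factor (chrX:57053570-57067182), had 0.125 and 0.102 in iXist-ChrX and 0.0493, 0.0751 and 0.0417 in Halo-SMCHD1. Hmgb3, an HMG-box chromatin protein (chrX:71555993-71560654), had 0.175 and 0.0824 in iXist-ChrX and 0.0781, 0.0544 and 0 in Halo-SMCHD1. The gap was 0.0175 for Kdm6a and 0.0270 for Htatsf1, whereas it was only 0.00423 for Hmgb3, in which iXist-ChrX replicate 1 carried most of the difference. The difference of Kdm6a, unlike those of the other 8 genes given, turned positive when libraries were centred on their median. It was -0.41 in log2 odds before and 0.0336 after a shift of 0.44, and thus lay slightly below the difference of the median gene, -0.36.

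The 5 genes with the smallest limma p were all lower in Halo-SMCHD1 without overlap. Itgb1bp2, the muscle integrin-binding protein melusin (chrX:101449109-101453541), had 0.0710 and 0.05 in iXist-ChrX and 0.0172, 0.0231 and 0 in Halo-SMCHD1. Cask, a synaptic scaffold kinase (chrX:13517081-13846556), had 0.0600 and 0.0407 in iXist-ChrX and 0.00933, 0.0204 and 0.0272 in Halo-SMCHD1. Their log2 odds differed by -1.81 with an SE of 0.52 for Itgb1bp2 and by -1.14 with an SE of 0.33 for Cask (limma adjusted p = 0.345 for both). Chst7, a sulfotransferase (chrX:20059570-20097520), had 0.0569 and 0.0142 in iXist-ChrX and 0, 0.00826 and 0.0119 in Halo-SMCHD1, and Rbm3 had the same adjusted p as these genes. Haus7, an augmin subunit of the mitotic spindle (chrX:73437315-73459029), had 0.104 and 0.0610 in iXist-ChrX and 0.0123, 0.0217 and 0.05 in Halo-SMCHD1 (limma adjusted p = 0.420).

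Of the 5 genes higher in Halo-SMCHD1 without overlap, Pin4, a parvulin-type prolyl isomerase (chrX:102119465-102127673), had the largest difference. Its fractions were 0.371 and 0.271 in iXist-ChrX and 0.486, 0.388 and 0.373 in Halo-SMCHD1. The nearest libraries were only 0.00191 apart, and the log2 odds differed by 0.59 with an SE of 0.44 (limma adjusted p = 0.565). Mamld1, a mastermind-like coactivator (chrX:71050256-71154717), had 0.00395 and 0.00813 in iXist-ChrX and 0.0189, 0.0543 and 0.0618 in Halo-SMCHD1. Pdzd11, a PDZ-domain adaptor (chrX:100622906-100625907), had 0.0220 and 0.0250 in iXist-ChrX and 0.0364, 0.0392 and 0.0600 in Halo-SMCHD1. Mamld1 and Pdzd11 were the genes that kept a gap of at least 0.01, at fractions of at most 0.0618. Maged1, an adaptor of the MAGE family (chrX:94535474-94542074), had 0.00246 and 0.00435 in iXist-ChrX and 0.00556, 0.0539 and 0.0407 in Halo-SMCHD1. Amer1, a regulator of Wnt signalling (chrX:95420314-95444840), had 0.0204 and 0.0373 in iXist-ChrX and 0.0448, 0.0481 and 0.0375 in Halo-SMCHD1. The gap was 0.00121 for Maged1 and 0.000187 for Amer1.

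**Figure D3:**
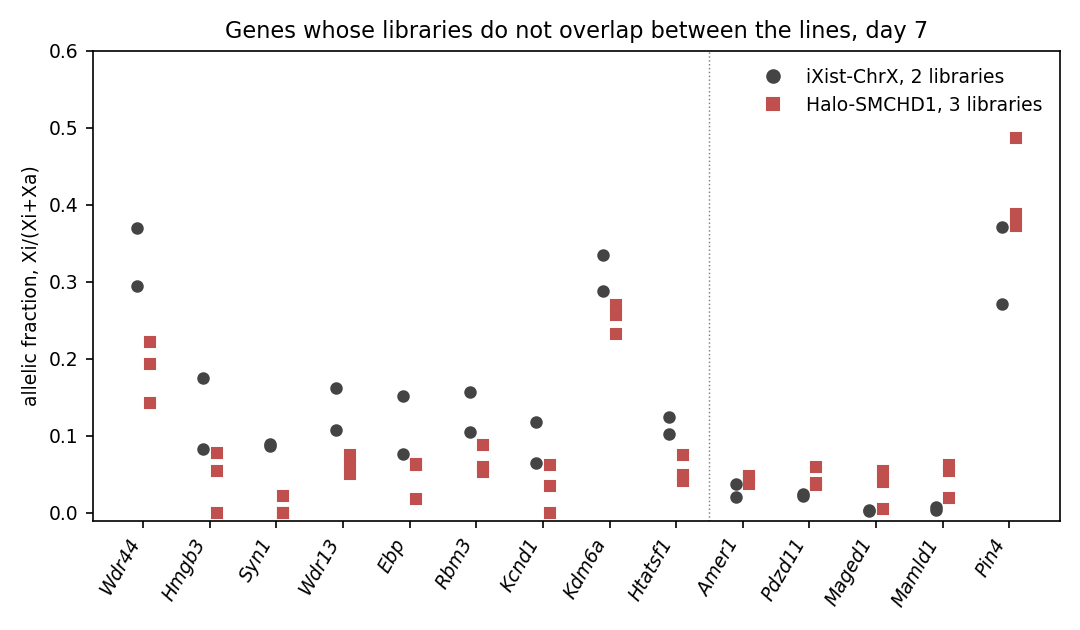
Allelic fraction (vertical axis) in each day 7 library for 9 of the 10 genes with the largest lower mean in Halo-SMCHD1 and, right of the dotted line, the 5 genes with a higher mean, among genes whose libraries do not overlap. Each point is 1 library. Wdr44 shows the widest gap between the lines, 0.0719, and Amer1 the narrowest, 0.000187.

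Along the chromosome, the difference was taken in bins of 10 Mb. The mouse X chromosome is telocentric, so that low coordinates lie next to the centromere and Xist lies at the far end of the table. Among genes with their midpoint in the first 10 Mb, 33 of 34 had a lower mean in Halo-SMCHD1, and the bin means were 0.136 and 0.0956 in iXist-ChrX and 0.0661, 0.0877 and 0.0926 in Halo-SMCHD1. All Halo-SMCHD1 libraries were below both iXist-ChrX libraries there, with a difference of -0.0337 (exact permutation test, two-sided, p = 0.2, the smallest possible). From 10 to 20 Mb (16 genes) the difference was -0.0254, and from 20 to 30 Mb (20 genes) it was -0.0230, with libraries that overlapped. Without iXist-ChrX replicate 1 the difference was -0.0135 in the first bin, -0.00212 in the second and -0.00946 in the third. In the bin of 5 genes from 60 to 70 Mb, all Halo-SMCHD1 libraries were again below both iXist-ChrX libraries (0.0407, 0.0553 and 0.0509 against 0.0788 and 0.0566, exact permutation test, two-sided, p = 0.2). Among the 8 bins beyond 30 Mb, the difference lay between -0.0187, in that bin, and 0.00344. It was 0.00342 in the last bin, which holds 26 genes including Xist and Tsix, and Tsix alone differed by 0.153. In the last bin 17 genes were lower and 9 higher, with a median gene difference of -0.00523. From 80 to 90 Mb, where the mean difference was 0.00344, 4 genes were lower and 2 higher, with a median of -0.0105. Relative to all other genes of the same library, the first bin differed between the lines by -0.0253 (exact permutation test, two-sided, p = 0.2). The same p was reached in the opposite direction by the bins from 50 to 60 Mb (0.00820), 90 to 100 Mb (0.00949) and 100 to 110 Mb (0.0171). Over the 11 bins, the smallest Benjamini-Hochberg adjusted value of these exact tests was 0.733 on the deposited scale and 0.55 relative to the other genes.

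Genes without overlap that were lower in Halo-SMCHD1 made up 29.4% of the first bin, 43.8% of the second bin and 45.0% of the third bin against 25.3% of all genes. None of the 13 genes between 30 and 40 Mb was of this class, and in the bins beyond 40 Mb with more than 10 genes the share was between 19.2% and 23.7%. In the bins with fewer genes, 2 of 5 were of this class from 60 to 70 Mb and 1 of 6 from 80 to 90 Mb. All 5 genes of the opposite direction lay beyond 70 Mb, where the bins hold 59, 6, 26 and 26 of the 249 genes. In total, 9 of the 11 bins had a lower mean in Halo-SMCHD1. With medians over genes in place of means, 10 of the 11 bins were lower.

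**Figure D4:**
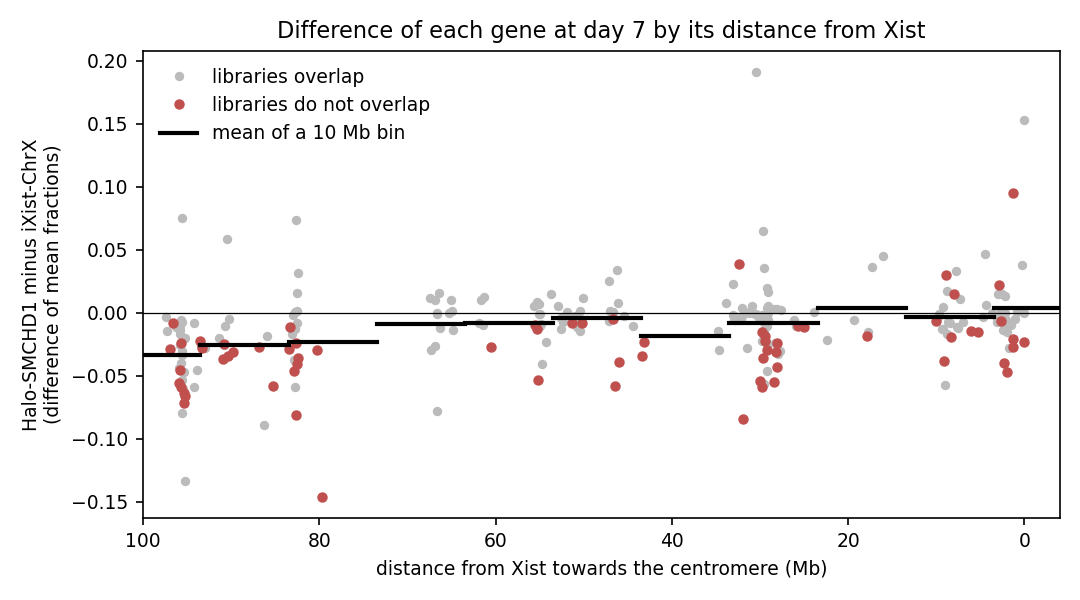
Difference of the line means of each gene (Halo-SMCHD1 minus iXist-ChrX, in units of allelic fraction) against its distance from Xist towards the centromere in Mb. Red points are genes whose libraries do not overlap and black lines are means of 10 Mb bins. The bin means are between -0.0337 and -0.0230 in the 3 bins nearest the centromere and close to 0 next to Xist.

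The 70 genes below 30 Mb were then set against the 179 other genes of the same library, a limit chosen after the values were seen. The mean fraction of the former exceeded that of the latter by 0.0374 and 0.0116 in iXist-ChrX and by -0.00736, 0.00328 and 0.00710 in Halo-SMCHD1. The lines did not overlap, and their difference was -0.0235 (exact permutation test, two-sided, p = 0.2, the smallest possible). It was -0.0240 with the limit at 20 Mb and -0.0206 with the limit at 40 Mb. With medians over genes in place of means it was -0.0196, and the lines then overlapped (exact permutation test, two-sided, p = 0.4). Without iXist-ChrX replicate 1 the difference was -0.0106, and without iXist-ChrX replicate 2 it was -0.0364. The 70 genes differed between the lines by -0.0287 on average and the other 179 genes by -0.00526.

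The same part of the chromosome also separated the replicates of a line from each other. iXist-ChrX replicate 1 exceeded replicate 2 by 0.0380 in the 70 genes and by 0.0122 in the others. Halo-SMCHD1 replicate 3 exceeded replicate 1 by 0.0288 in the 70 genes and by 0.0144 in the others. In iXist-ChrX replicate 2 and Halo-SMCHD1 replicate 2, the pair of the lines closest in mean, the difference was -0.00774 in the 70 genes and 0.000605 in the others.

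Libraries of Halo-SMCHD1 from earlier stages show how these genes stood before day 7. The 70 genes were at 0.503 and the others at 0.529 in the uninduced library, and after 24 h with dox in undifferentiated cells they were at 0.305 and 0.239 (1 library each). At day 5 the excess of the 70 genes was 0.0160 and 0.0241 in the 2 Halo-SMCHD1 libraries. Thus the genes nearest the centromere were slightly lower than the others before induction and higher after 24 h and at day 5. The day 7 excess of the iXist-ChrX replicates lay on either side of the day 5 values of Halo-SMCHD1. Across the 249 genes, the day 7 difference between the lines had a Spearman correlation of -0.36 with the fraction after 24 h with dox and of 0.31 with position, which share the order of genes along the chromosome.

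In the day 7 libraries of 5 other lines (SMCHD1 KO, LRIF1 KO, E147A, G137E and Y353C), the excess was between 0.00115 and 0.0213. All 11 of these libraries lay above Halo-SMCHD1 replicate 1, and iXist-ChrX replicate 1, whose reads were restored, had the highest value of these 16 libraries. K518E, another line with mutated SMCHD1, was not analysed here. Whether restoring the reads moved this value was not tested.

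**Figure D5:**
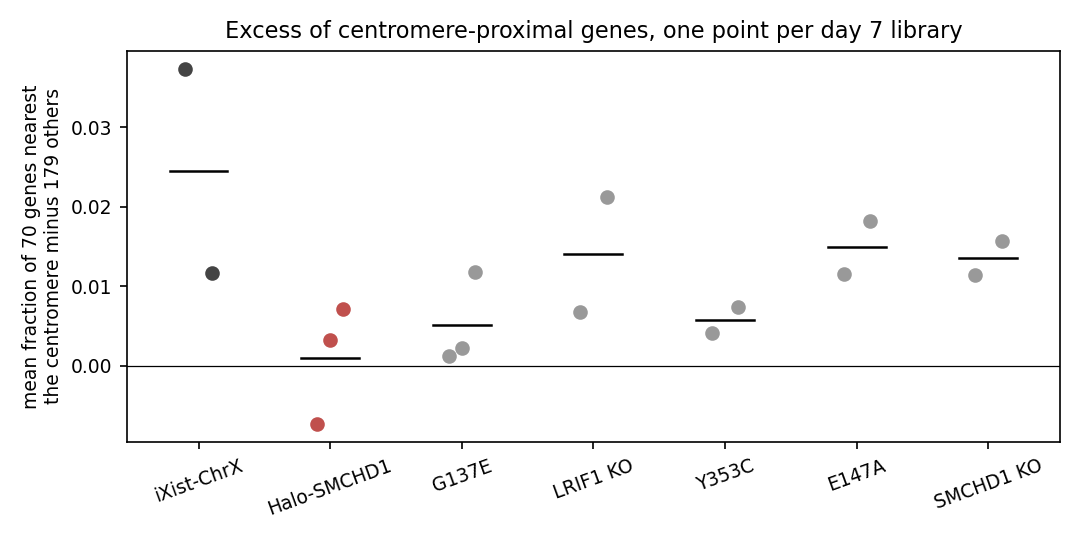
Mean allelic fraction of the 70 genes nearest the centromere minus that of the 179 other genes (vertical axis), with 1 point for each day 7 library and a line at the mean of each cell line. The Halo-SMCHD1 libraries lie between -0.00736 and 0.00710 and the iXist-ChrX libraries at 0.0374 and 0.0116.

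Library means over all genes placed iXist-ChrX at day 7 between the stages of Halo-SMCHD1. The mean fraction was 0.105 and 0.0954 in Halo-SMCHD1 at day 5, 0.0935 and 0.0740 in iXist-ChrX at day 7, and 0.0625, 0.0723 and 0.0809 in Halo-SMCHD1 at day 7. iXist-ChrX replicate 1 was close to the lower day 5 library, and replicate 2 fell among the day 7 libraries of Halo-SMCHD1. No day 5 library of iXist-ChrX was at hand for a comparison at the same stage.

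Among known escape genes, all 7 measured of 14 listed had a lower mean in Halo-SMCHD1, and 4 did so without overlap, where 184 of all 249 genes were lower and 25.3% were lower without overlap. No member passed limma at an adjusted p of 0.05. The median difference was -0.0285 against -0.0101 over all 249 genes, and 5 of the 7 genes lie below 30 Mb. Besides Kdm6a, the genes without overlap were Utp14a, Usp9x and Shroom4. Utp14a, a factor of ribosomal RNA processing (chrX:48256934-48282449), had 0.298 and 0.244 in iXist-ChrX and 0.224, 0.205 and 0.224 in Halo-SMCHD1. Usp9x, a deubiquitinase (chrX:13071498-13173327), had 0.0915 and 0.0699 in iXist-ChrX and 0.0282, 0.0449 and 0.0651 in Halo-SMCHD1. Shroom4, an actin-binding protein (chrX:6400145-6633717), had 0.0785 and 0.0395 in iXist-ChrX and 0.0198, 0.0349 and 0.0367 in Halo-SMCHD1. Centred on the library median, the difference of Utp14a was positive (0.0389 in log2 odds), like that of Kdm6a, whereas before centring it was -0.40, also slightly below that of the median gene.

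The other escape genes overlapped between the lines. Ddx3x, an RNA helicase (chrX:13281022-13293983), had means of 0.152 ± 0.0303 (SD, n = 2) in iXist-ChrX and 0.147 ± 0.0267 (SD, n = 3) in Halo-SMCHD1. Eif2s3x, a subunit of the translation initiation factor eIF2 (chrX:94188709-94212651), had 0.231 ± 0.0113 (SD, n = 2) and 0.218 ± 0.0269 (SD, n = 3). For 1810030O07Rik (chrX:12654884-12673546) the means were 0.113 ± 0.0863 (SD, n = 2) and 0.0867 ± 0.0175 (SD, n = 3). The means of Ddx3x differed by less than the SD of either line, and those of Eif2s3x by less than the SD of Halo-SMCHD1 but not that of iXist-ChrX. The means of the escape genes ran from 0.0590 to 0.312 in iXist-ChrX and from 0.0305 to 0.253 in Halo-SMCHD1. Shroom4 had the lowest and Kdm6a the highest level of the list in both lines. The mean of Shroom4 lay above the median of all genes in iXist-ChrX, 0.0498, and below that in Halo-SMCHD1, 0.0325.

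Of the X-inactivation centre, 3 of 10 listed genes were measured, namely Xist, Tsix and Chic1. Tsix, the antisense partner of Xist (chrX:103431517-103484957), had 0.224 and 0.0996 in iXist-ChrX and 0.186, 0.647 and 0.111 in Halo-SMCHD1. Its mean difference of 0.153 rested on Halo-SMCHD1 replicate 2 alone, without which it turned to -0.0133. The day 5 libraries of Halo-SMCHD1 were also far apart for Tsix, at 0.469 and 0.0589. Tsix overlaps Xist on the opposite strand, and the reads were counted by strand. Chic1, which lies on the centromere side of Xist (chrX:103356476-103396118), had 0.0656 and 0.0653 in iXist-ChrX and 0.0203, 0.0436 and 0.0621 in Halo-SMCHD1. The libraries of Chic1 did not overlap, but by only 0.00318.

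Genes of translation and the ribosome were lower in 3 of the 4 measured members, 2 of them without overlap, with a median difference of -0.0336. Over all genes, 184 of 249 were lower, 25.3% were lower without overlap, and the median difference was -0.0101. Dkc1, the pseudouridine synthase dyskerin (chrX:75095854-75109776), had 0.0762 and 0.0814 in iXist-ChrX and 0.00412, 0.0476 and 0.0187 in Halo-SMCHD1, without overlap. Rpl10, a ribosomal protein (chrX:74270816-74273135), had 0.336 and 0.256 in iXist-ChrX and 0.310, 0.170 and 0.268 in Halo-SMCHD1, with overlap. Rpl10 has near-identical copies elsewhere in the genome, and only unique alignments were kept, so reads that match several copies equally were dropped.

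Among 16 chromatin and transcription genes, 13 were lower and 3 higher, 2 of the lower ones without overlap, with a median difference of -0.00842. Over all genes, 184 of 249 were lower and 25.3% were lower without overlap. Suv39h1, a histone H3K9 methyltransferase (chrX:8061171-8074760), had 0.295 and 0.245 in iXist-ChrX and 0.140, 0.209 and 0.277 in Halo-SMCHD1. Ogt, the O-GlcNAc transferase (chrX:101640051-101684351), had 0.174 and 0.111 in iXist-ChrX and 0.106, 0.111 and 0.128 in Halo-SMCHD1. Both overlapped between the lines.

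For RNA processing, 6 of 10 genes were lower and 4 higher, with a median difference of -0.00885. Over all genes, 184 of 249 were lower, 25.3% were lower without overlap, and the median difference was -0.0101. Besides Rbm3, Pqbp1, a splicing factor (chrX:7894519-7899269), had 0.149 and 0.105 in iXist-ChrX and 0, 0.143 and 0 in Halo-SMCHD1. Its libraries overlapped, and 2 of them were listed at 0. For metabolic enzymes, 7 of 10 were lower and 3 higher, with a median of -0.00358, and Idh3g, a subunit of isocitrate dehydrogenase (chrX:73778963-73786897), had means of 0.173 ± 0.0464 (SD, n = 2) and 0.151 ± 0.0199 (SD, n = 3). In the ubiquitin system, 2 of 6 genes were lower, 3 higher and 1 equal, with a median of 0.000156. Of these, Klhl13, an adaptor of a cullin ligase (chrX:23219271-23285428), had 0.0625 and 0.0512 in iXist-ChrX and 0.0164, 0.0193 and 0.0455 in Halo-SMCHD1, without overlap. Uba1, the main ubiquitin-activating enzyme (chrX:20658302-20683179), had means of 0.107 ± 0.0114 (SD, n = 2) and 0.0942 ± 0.0338 (SD, n = 3), with overlap. No member of any list had a limma adjusted p under 0.05.

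The residual level of the control sets what is read as a gain in another line. The mean fraction at day 7 was 0.0837 ± 0.0138 (SD, n = 2) in iXist-ChrX and 0.0719 ± 0.00922 (SD, n = 3) in Halo-SMCHD1. Their difference of -0.0119 could not be told from the spread between libraries (exact permutation test, two-sided, p = 0.4). It was -0.00213 without iXist-ChrX replicate 1. SMCHD1 KO was derived from iXist-ChrX, and LRIF1 KO and G137E, which carries a point mutation in the ATPase domain, were derived from Halo-SMCHD1. Each was set against both controls, so that the counts share the libraries of the line compared. The libraries of SMCHD1 KO lay above both iXist-ChrX libraries for 69 genes (27.7%) and above all Halo-SMCHD1 libraries for 99 genes (39.8%). They lay below both iXist-ChrX libraries for 19 genes and below all Halo-SMCHD1 libraries for 2. For LRIF1 KO the counts above were 31 genes (12.4%) and 53 genes (21.3%), and those below were 44 and 7. The mean fraction of LRIF1 KO thus stood at -0.000628 relative to iXist-ChrX and at 0.0112 relative to Halo-SMCHD1. For G137E the counts above were 6 genes (2.41%) and 8 genes (3.21%). The libraries of G137E lay below both iXist-ChrX libraries for 52 genes and below all Halo-SMCHD1 libraries for 5. All of these counts are of 249 genes. Halo-SMCHD1 itself lay below both iXist-ChrX libraries for 63 genes (25.3%) and above both for 5 (2.01%). G137E has 3 libraries, whereas SMCHD1 KO and LRIF1 KO have 2 each, so their counts are not alike. Against Halo-SMCHD1 the number of genes above the control was higher for SMCHD1 KO, LRIF1 KO and G137E, although 3 control libraries had to be exceeded in place of 2. These counts carry no test.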

How the data were processed

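ChrRNA-seq libraries of iXist-ChrX (2) and Halo-SMCHD1 (3) at day 7 were compared, with the uninduced, 24 h and day 5 libraries of Halo-SMCHD1 and the day 7 libraries of other lines for reference. After filtering of rRNA reads (Bowtie2), the authors mapped reads with STAR to mm10 in which SNP positions were masked, assigned unique alignments to alleles with SNPsplit and counted them by strand over transcripts with featureCounts. From these counts the authors computed the deposited fraction Xi/(Xi+Xa) of each gene with at least 10 reads over SNPs. Fractions are not normalised between libraries, no replicates are pooled, and depth per sample is unknown, so counting error could not be given. The processing notes of the submitters name no tool versions.

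Groups were taken from the labels. The columns of iXist-ChrX carry a clone name that the labels lack and were assigned by day, replicate and elimination. For 1 column of E147A the replicate is not known, and it was used as a library of its group only. A separate table with K518E and without iXist-ChrX was not used. The replicates are separate differentiation experiments of 1 line or clone, and p-values measure the spread between them. Library medians, means, counts and bins of 10 Mb (gene midpoints) were tested by exact permutation, two-sided, over the 5 libraries. Single genes were tested with limma 3.58.1 in R 4.3.3 on log2((r + 0.01)/(1 - r + 0.01)), fitted over all differentiated libraries, with Benjamini-Hochberg adjustment over 249 genes and a threshold of 0.05. limma was tested on 20 simulated sets, in each of which 60 of 249 genes were changed by 3 in log2 odds, and 86% of these were recovered. Smaller changes were not simulated, so the recovery at the differences seen here is not known. No count test was run, as counts were not at hand. Genes were called non-overlapping where all libraries of a line lay beyond all libraries of the other.

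Genes named were Xist, genes with a mean above 0.5 in either line, the 10 largest differences in each direction among non-overlapping genes, the 5 smallest limma p, and the 2 largest differences of each of 7 gene lists. Other genes named (Porcn, Tbc1d25, Slc35a2, Spin4, other escape genes and members of small classes) were chosen after their values were seen, and 1 gene that meets the rule is not reported here. The comparison, members, lists and tests were chosen with earlier results of these data known. Of 249 genes, 239 matched a RefSeq symbol. The table start was 1 base below the RefSeq start for 116 of these and equal to it for 8, so starts were read as 0-based and are given 1-based. Alternatives tried were leaving out each library, log2 odds, centred libraries, pseudocounts of 0.001 and 0.05, untransformed fractions, fewer libraries in the fit, the replicate number as a block, genes at 0.25 to 0.75 uninduced, robust and trend options, other limits and bins of 20 Mb. All other steps ran in Python 3.11.15 (scipy 1.17.1, pandas 2.3.3, numpy 2.4.6), and plots were drawn in matplotlib 3.10.9.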

Additional observations from a re-analysis of the deposited data

How the results depend on the processing

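The sign of the difference of medians and of means, which the exact permutation test over 5 libraries cannot place under 0.05, was the same in every alternative run. Leaving out a library gave differences of medians from -0.0217 to -0.00538 and of means from -0.0216 to -0.00213. With the replicate block (replicates 1 and 2 of both lines) the difference of means was -0.0164. The labels give no shared batch, and libraries with the same replicate number deviated from their line means with a correlation of -0.06 over 249 genes, so the numbers were not taken to pair the samples. The block gave 0 limma calls, as did the other settings except leaving out iXist-ChrX replicate 2 (0 to 2 calls without a library). Over these settings the smallest adjusted p ran from 0.0103 to 0.746. Genes lower in Halo-SMCHD1 without overlap made up 10.0% with a gap of at least 0.01, 11.6% with libraries centred on their median log odds and 27.7% to 55.0% without a library. Higher genes made up 0.803% with that gap, 13.7% with centred libraries and 2.01% to 12.9% without a library. Fewer libraries by construction give more genes without overlap. Genes with a lower mean in Halo-SMCHD1 numbered 104 with centred libraries. The count of genes above the residual limit was 124 in iXist-ChrX and 80 in Halo-SMCHD1 at 0.05, and 18 and 17 at 0.2. With centred libraries, which shifts every gene by 0.44 in log2 odds between the lines, 8 of the 35 named genes changed sign, among them Kdm6a (0.0336 in log2 odds) and Utp14a (0.0389), both non-overlapping on the deposited scale, and none did on the log2 odds scale without centring. The difference of genes below 30 Mb against the others was negative in all settings added after seeing the data, from -0.0364 to -0.0106 without a library. The causes of these shifts were not tested. Depth is unknown, so whether genes listed at 0 reflect few reads cannot be told.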
